A study of Homo sapiens with 4 samples.

Results

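The genes described here are 57 protein-coding genes of band 19p13, the outer part of the short arm of human chromosome 19, all outside the zinc finger family. They were chosen by name, with earlier results of these data known, because their levels in knockout library 2 lay mostly below the parental ones. The whole table holds 26484 gene symbols, of which 15431 passed the filter used for tests, and all 57 passed it through values far above the minimum of 10 normalized counts in every library. RNA was measured by sequencing of polyadenylated mRNA with a strand-marking kit in A375, a human melanoma cell line. The cells compared were a p53 knockout of that line made with CRISPR-Cas9, represented by 2 libraries that the table numbers 2 and 8, and the parental line with wild-type p53, with 2 libraries numbered 1 and 2. The labels do not say whether the knockout libraries come from separate clones or cultures, and there was no edited control line with intact p53, so effects of p53 loss, of editing and of selecting cells cannot be told apart.

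Short arm 19p is among the most gene-rich stretches of the human genome. Its genes serve unrelated tasks: translation elongation, splicing, the kinase cascades downstream of RAS, chromatin remodelling, mitochondrial proteolysis and vesicle traffic. Neighbours on a chromosome arm share a DNA segment, while the level of each transcript also depends on that gene's own promoter and on how stable the transcript is. Which of these neighbours moved with the others, and which did not, is the question addressed here.

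Recovered reads totalled 30334054 and 32160978 in knockout libraries 2 and 8, and 29230554 and 36331894 in parental libraries 1 and 2. Of 9 melanoma markers 6 passed the filter, and the list summed to 34123 and 33364 normalized counts in knockout libraries 2 and 8, against 39858 and 38839 in parental libraries 1 and 2. SOX10, a neural crest transcription factor, made up most of each sum, at 25662 to 30033. MITF, the pigment cell regulator, had 849 and 1050, against 1645 and 1562, S100A1 had 3285 and 5068, against 5910 and 5557, and PMEL had 55.8 and 36.1, against 28.5 and 28.1. The pigment cell genes MLANA and TYR were at 0 in all 4 libraries. Fibroblast markers summed to 2336 and 1384 in the knockout libraries, against 1353 and 1299 in the parental ones. PDGFRA, with 1033 and 368, against 355 and 284, and PDGFRB, with 1166 and 764, against 829 and 847, made up most of these sums. COL1A2 and COL3A1 were at most at 3.51. Blood markers summed to 2355 and 979, against 1721 and 1460, nearly all of it CD68. Epithelial markers summed to 7088 and 6804, against 7742 and 7575. KRT18 made up most of the epithelial sums, with 6126 and 5569, against 6548 and 6494, while CDH1 was at 0 in every library. The part of these differences in the results on 19p13 was not tested.

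In knockout library 2 the 57 genes had a median log2 ratio of -0.53 to the parental mean, or 69.3% of the parental level. Ratios here are differences of log2(normalized count + 1), with the mean of the parental pair subtracted. In knockout library 8 the median was -0.06. Between the parental libraries, library 2 minus library 1, it was 0.04, with single genes between -0.17 and 0.20. Knockout 2 lay below both parental libraries for 53 of the 57 genes, above both for 3 and between them for 1. Over all 15431 genes tested, 43.5% lay below both in that library, with a median of -0.0012. Since the genes were chosen on these very ratios, the count describes them and tests nothing. In bulk RNA, less of a transcript in every cell and its loss from a share of the cells cannot be told apart.

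Knockout 8 shared little of this shift. It lay below both parental libraries for 35 of the 57 genes, against 40.8% of all genes tested, above both for 11, against 40.2%, and between them for 11. Both knockout libraries lay below both parental ones for 34 genes, against 23.7% of all genes tested. Ratios in knockout 8 ran from -0.47 to 0.44, and 54 of the 57 genes had less in knockout 2 than in knockout 8, against 50.4% of all genes tested. For 54 genes the distance of knockout 2 from the parental mean exceeded the gap between the parental libraries, against 73.5% of all genes tested, and for knockout 8 this held for 38, against 65.5%. The knockout 8 count is near the share over all genes and is no result about the 57.

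**Figure D1:**
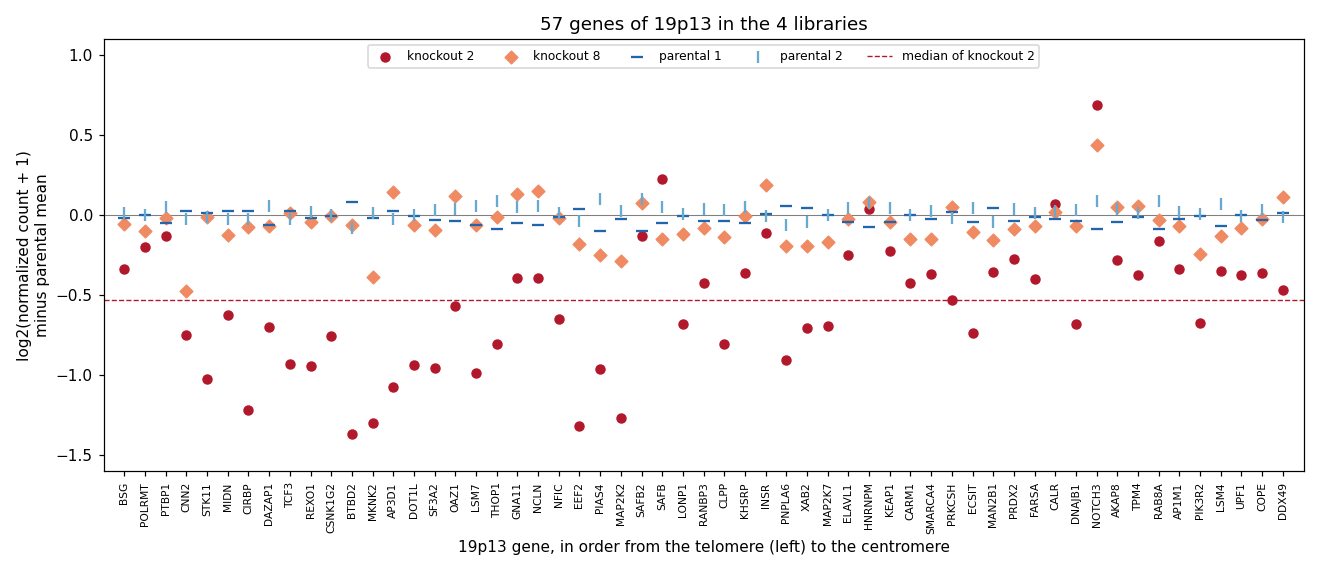
Log2(normalized count + 1) minus the parental mean (y axis) for the 57 genes in their order from the telomere (x axis), with knockout 2 as circles, knockout 8 as diamonds, parental libraries as short bars and the knockout 2 median of -0.53 as a dashed line. Knockout 2 lies deepest from STK11 to MAP2K2, while knockout 8 stays near the parental pair.

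As a group contrast, both knockout libraries against both parental ones, limma called 0 of the 57 genes and 0 of all genes at an adjusted p of 0.05, and the smallest adjusted p among the 57 was 0.259. At an unadjusted p under 0.05 it found 950 genes lower and 903 higher, among them CNN2, MKNK2 and PIK3R2 lower, against 6.16% of all genes, and NOTCH3 higher, against 5.85%. Run on recovered reads, edgeR's quasi-likelihood test called 0 of them and 0 of all genes (smallest adjusted p among the 57 of 0.26), with 921 lower and 946 higher at an unadjusted p under 0.05. DESeq2 called 398 of all genes, and of the 57 CNN2 alone (log2 fold change -0.60 ± 0.17, SE, adjusted p = 0.0167), against 1.22% of genes called lower and 1.21% called higher. With knockout library 2 alone set against the parental pair, limma called 49 of the 57 lower and 2 higher, against 17.7% lower and 16.1% higher over all genes. With knockout library 8 alone it called CNN2, MAP2K2, MKNK2 and PIK3R2 lower and 1 gene higher, against 11.2% and 9.33%. A lone library is assumed there to vary like the parental pair, and the contrasts are those the genes were picked on, so these counts support nothing further.

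The shift was not level along the arm. Of the 57 genes 47 had a knockout 2 ratio under -0.25, against 23.8% of all genes tested, and 7 had a ratio under -1, against 3.59%. From CNN2 to MAP2K2, 22 consecutive listed genes had a median log2 ratio of -0.94 in knockout 2, or 52.2% of the parental level, with a range from -1.37 to -0.39. The 32 genes on the centromeric side of MAP2K2 had a median of -0.36, and the 3 on the telomeric side of CNN2 (BSG, POLRMT and PTBP1) had a median of -0.20. These limits were set after the values were seen. In knockout 8 the median was -0.06 from CNN2 to MAP2K2, -0.07 on the centromeric side and -0.06 on the telomeric side. By chromosome band, the knockout 2 median was -0.75 over 31 genes of 19p13.3, -0.42 over 11 of 19p13.2, -0.31 over 4 of 19p13.13, -0.33 over 4 of 19p13.12 and -0.36 over 7 of 19p13.11. Across the 57 genes, Spearman's rho between order from the telomere and the knockout 2 ratio was 0.45, and for the knockout 8 ratio it was 0.03; genes of a library share its scaling and its neighbours, and are not independent replicates.

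Genes of 19p13 that were not on the list lay at similar values. Outside the zinc finger family 322 such genes were tested, and 276 had a parental mean of at least 100 normalized counts. The median log2 ratio of these 276 in knockout 2 was -0.50, with 244 below both parental libraries, and in knockout 8 it was -0.06. Between CNN2 and MAP2K2 the 47 unlisted genes had a median of -0.85 and all 47 lay below both parental libraries in knockout 2. Beyond MAP2K2 the 216 unlisted genes had a median of -0.46. On the telomeric side of CNN2 the 13 unlisted genes had a median of -0.73, and the 3 listed ones were at -0.13, -0.20 and -0.34. The unlisted genes lying between the listed BSG and PTBP1 were HCN2 (0.44), RNF126 (-0.45), FSTL3 (-0.01) and PALM (0.02). All other unlisted genes on that side of CNN2 had lower ratios than these. The listed genes there thus did not stand apart from the unlisted ones nearest to them. The 42 zinc finger genes of 19p13 with such a parental mean, which the list leaves out, had a median of -0.53 in knockout 2. Outside 19p13 the median ratios in knockout 2 were near 0. The median was -0.01 over 29 genes of 19p12 and the pericentromere, where zinc finger genes were kept. These 29 spread widely, with quartiles of -0.24 and 0.41, and 12 lay below and 14 above both parental libraries. Over 306 genes of the long arm outside the zinc finger family the median was -0.04, with quartiles of -0.20 and 0.12. Listed and unlisted genes of 19p13 thus lay below the parental level alike in most cases in knockout 2.

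**Figure D2:**
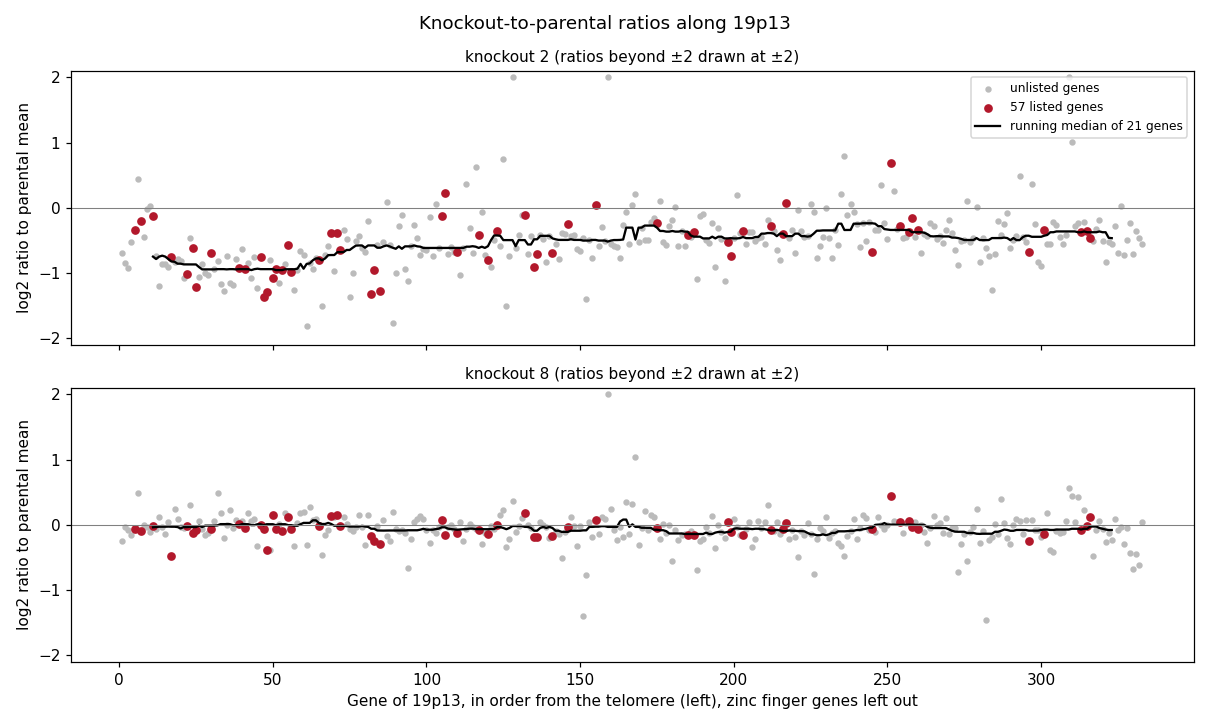
Log2 ratio to the parental mean in knockout 2 (top) and knockout 8 (bottom) for 19p13 genes with a parental mean of at least 100, in their order from the telomere, with the 57 listed genes in red, unlisted genes in grey and a running median along the arm as a line. In knockout 2 the line lies lowest over the first part of the arm and stays below 0 throughout, and in knockout 8 it stays close to 0.

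Each gene was set against the common shift, the median of -0.53. A gene was taken to follow it where it lay below both parental libraries and within 0.25 of that median, to lie deeper where it was further below, and to escape where it was further above or not below both parental libraries. By this division 29 genes followed, 16 lay deeper and 12 escaped. Over all genes tested, 15.9% met the terms for following and 5.63% those for lying deeper. All other genes tested, the large majority, met the terms for escaping, which is thus the usual state of a gene. The nearest values on either side of the limits were -0.28 for AKAP8, which followed, and -0.27 for PRDX2, which escaped, and likewise -0.75 for CSNK1G2, which followed, and -0.80 for CLPP, which lay deeper. The 12 that escaped were POLRMT, PTBP1, SAFB2, SAFB, INSR, ELAVL1, HNRNPM, KEAP1, PRDX2, CALR, NOTCH3 and RAB8A. Each gene was also set against a local median, a reading chosen after the data were seen. It was taken over the 5 nearest unlisted genes on each side, outside the zinc finger family and with a parental mean of at least 100. BSG had 9 such neighbours in place of 10. By this reading 14 genes escaped, and 9 of them were among the 12. KEAP1, ELAVL1 and PRDX2 then followed, while MIDN, DAZAP1, OAZ1, GNA11 and NCLN, which lie in the deep stretch, escaped their neighbours' shift.

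Promoters are shown for 3 genes above both parental libraries in knockout 2 (NOTCH3, SAFB and CALR) and for 3 of the 5 lowest (EEF2, CIRBP and MAP2K2), so that genes that escaped and genes that lay deep can be read side by side. Each runs from 250 bases before to 50 after the start of the gene, 5′ to 3′ on the gene's strand, from RefSeq on GRCh38.p14, on chromosome 19. Capitals mark the GC box, spelled GGGCGG, to which factors of the SP family are known to bind. They also mark the CCAAT box, which has the letters of its name and is known as a target of the factor NF-Y. In CALR they further mark an endoplasmic reticulum stress element, spelled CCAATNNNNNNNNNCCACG. All were searched on both strands, and the stress element holds a CCAAT box, so a match is counted under both.
NOTCH3, chr19:15200946-15201245, minus strand: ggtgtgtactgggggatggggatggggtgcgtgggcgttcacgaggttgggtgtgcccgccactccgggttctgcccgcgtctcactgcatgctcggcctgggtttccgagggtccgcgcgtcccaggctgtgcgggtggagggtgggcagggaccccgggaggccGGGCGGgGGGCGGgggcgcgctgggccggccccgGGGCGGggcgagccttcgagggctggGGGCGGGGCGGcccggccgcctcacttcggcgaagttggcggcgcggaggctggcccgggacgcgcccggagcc
SAFB, chr19:5622833-5623132, plus strand: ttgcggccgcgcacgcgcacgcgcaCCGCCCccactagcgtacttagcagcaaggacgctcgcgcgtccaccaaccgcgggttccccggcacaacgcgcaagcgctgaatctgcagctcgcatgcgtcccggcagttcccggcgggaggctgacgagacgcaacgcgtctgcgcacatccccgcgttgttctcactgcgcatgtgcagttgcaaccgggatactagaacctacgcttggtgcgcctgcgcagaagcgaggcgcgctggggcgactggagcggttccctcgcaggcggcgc
CALR, chr19:12938359-12938658, plus strand: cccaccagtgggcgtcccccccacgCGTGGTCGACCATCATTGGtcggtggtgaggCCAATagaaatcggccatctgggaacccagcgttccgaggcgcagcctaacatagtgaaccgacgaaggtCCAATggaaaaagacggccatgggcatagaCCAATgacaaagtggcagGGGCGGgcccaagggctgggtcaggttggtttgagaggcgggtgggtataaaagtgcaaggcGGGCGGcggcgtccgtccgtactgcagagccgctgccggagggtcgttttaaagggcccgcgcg
EEF2, chr19:3985414-3985713, minus strand: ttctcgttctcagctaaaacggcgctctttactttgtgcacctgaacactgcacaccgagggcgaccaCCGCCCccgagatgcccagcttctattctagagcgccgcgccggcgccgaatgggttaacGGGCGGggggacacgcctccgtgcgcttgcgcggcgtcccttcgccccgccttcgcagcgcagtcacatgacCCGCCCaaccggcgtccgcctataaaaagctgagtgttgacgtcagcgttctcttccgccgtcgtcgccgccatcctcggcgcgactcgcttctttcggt
CIRBP, chr19:1269082-1269381, plus strand: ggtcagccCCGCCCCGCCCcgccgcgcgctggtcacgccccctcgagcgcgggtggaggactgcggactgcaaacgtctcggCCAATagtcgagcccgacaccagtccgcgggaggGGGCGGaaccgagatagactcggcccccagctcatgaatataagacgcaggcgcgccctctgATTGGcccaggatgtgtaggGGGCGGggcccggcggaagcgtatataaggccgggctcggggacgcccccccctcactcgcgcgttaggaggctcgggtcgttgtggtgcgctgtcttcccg
MAP2K2, chr19:4124073-4124372, minus strand: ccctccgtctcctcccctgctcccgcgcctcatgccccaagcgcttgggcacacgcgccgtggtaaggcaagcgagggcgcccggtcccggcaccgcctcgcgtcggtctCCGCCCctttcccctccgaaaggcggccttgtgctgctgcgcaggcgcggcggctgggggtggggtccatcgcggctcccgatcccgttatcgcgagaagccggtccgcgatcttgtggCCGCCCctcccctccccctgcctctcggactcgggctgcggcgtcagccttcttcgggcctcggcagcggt

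The 6 windows were all rich in G and C and differed in their elements. G and C made up 78.3% of the NOTCH3 window, 68.7% for SAFB, 62.7% for CALR, 64.3% for EEF2, 70.3% for CIRBP and 73.7% for MAP2K2. GC boxes numbered 5 in NOTCH3, 1 in SAFB, 2 in CALR, 3 in EEF2, 4 in CIRBP and 2 in MAP2K2, and CCAAT boxes were found in CALR (4) and CIRBP (2). RefSeq windows were matched for 49 of the 57 genes. Of these, 47 held a GC box (95.9%), against 79% of 224 unlisted 19p13 windows and 44.6% of all 27305 windows. A CCAAT box was in 21 (42.9%), against 41.5% and 35.7%. These sets were not matched for expression. The 224 unlisted genes had a parental mean of at least 100, and the 27305 windows had no such limit. The stress element was in 1 listed window, that of CALR, in 0 of the 224 unlisted ones and in 22 of all windows (0.0806%). Among 11 escaping genes with a window 10 held a GC box and 4 a CCAAT box, and among the 38 other listed genes 37 and 17 did. Median GC content was 69.3% in the 11 and 70.7% in the 38. The RefSeq start of CIRBP lies inside the longer span that GENCODE gives the gene, so other starts are not shown. A match describes letters in a window and is not a binding site.

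Among 13 signalling genes, 4 lay deeper, 6 followed and 3 escaped, and the median log2 ratio in knockout 2 was -0.69. BTBD2, a BTB domain protein that binds topoisomerase I, was the lowest of all 57, with 1084 and 2676 normalized counts in knockout libraries 2 and 8, against 2965 and 2641 in parental libraries 1 and 2. The gene spans chr19:1985438-2034881 on the minus strand (GRCh38). Knockout 2 lay far below the other 3 libraries, at 38.7% of the parental mean, and knockout 8 between the parental ones. MKNK2, a kinase that phosphorylates the cap-binding protein eIF4E, had 669 and 1257, against 1628 and 1665. Both knockout libraries lay below the parental pair here, with log2 ratios of -1.30 and -0.39 in knockout 2 and 8. MAP2K2, the kinase MEK2 that activates ERK in the BRAF pathway on which A375 cells depend, had 1696 and 3350, against 4021 and 4160. Its log2 ratios were -1.27 and -0.29, and the counting interval of the first, 95% exact, ran from -1.35 to -1.20. Counting intervals cover sampling of reads only, and sequencing reads, where molecular identifiers are not used, can be copies of 1 molecule.

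STK11, the tumour suppressor kinase LKB1, lies at chr19:1177558-1228435 on the plus strand and had 884 and 1780 in knockout 2 and 8, against 1808 and 1781. Only knockout 2 was low, at 49.3% of the parental mean, and knockout 8 lay close to parental library 2. PIK3R2, a regulatory subunit of PI 3-kinase, had 3064 and 4137, against 4876 and 4906. With log2 ratios of -0.67 and -0.24 both knockout libraries lay below the parental ones, the lower being knockout 2. The kinases CSNK1G2 and MAP2K7, the RAN-binding protein RANBP3, the adaptor ECSIT and the G protein subunit GNA11 lay between -0.75 and -0.39 in knockout 2 and between -0.17 and 0.13 in knockout 8. In this role group NOTCH3, INSR and KEAP1 escaped. NOTCH3, a receptor that is cleaved on ligand binding to release a transcriptional activator, had 1010 and 849, against 591 and 666. It was the highest of the 57 in both knockout libraries, with log2 ratios of 0.69 and 0.44, which exceeded the parental gap of 0.17, and the groups did not overlap. INSR, the insulin receptor, had 1073 and 1323, against 1167 and 1154, so the knockout libraries lay on opposite sides of the parental pair. KEAP1, which presents the stress regulator NRF2 for degradation, had 2639 and 2996, against 3000 and 3180, a ratio of -0.23 in knockout 2.

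RNA processing was the largest group, with 15 genes and a knockout 2 median of -0.37, and it held 5 of the 12 that escaped. CIRBP, a cold-inducible RNA-binding protein, had 3025 and 6677 normalized counts in knockout 2 and 8, against 7162 and 6902 in the parental libraries. Knockout 2 was at 43% of the parental mean, with its neighbours' median at -0.91 and CIRBP itself at -1.22. LSM7 and SF3A2, subunits of the U6-binding LSM ring and of the U2 particle, and REXO1, an RNA exonuclease-like protein, lay at -0.98, -0.96 and -0.94, and by the local reading all 3 followed their neighbours. XAB2, DAZAP1 and DDX49 were at -0.70, -0.70 and -0.47. DDX49, an RNA helicase, had 3217 and 4812, against 4490 and 4398, with knockout 2 below and knockout 8 above both parental libraries. UPF1, the helicase at the centre of nonsense-mediated decay, KHSRP, a decay-promoting RNA-binding protein, and LSM4 were at -0.37, -0.36 and -0.35.

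The 5 escaping genes of this group encode RNA-binding proteins, as do CIRBP and KHSRP, which did not escape. HNRNPM, a splicing regulator at chr19:8444767-8489114 on the plus strand, had 14055 and 14466 in knockout 2 and 8, against 12982 and 14399. Knockout 2 lay between the parental libraries, with a log2 ratio of 0.04 where its 10 unlisted neighbours had a median of -0.53. PTBP1, which represses neuronal exons, had 12595 and 13616, against 13285 and 14279, and was 0.50 above the median of its neighbours. These neighbours differed by side. PALM and FSTL3, nearest toward the telomere, were at 0.02 and -0.01, above PTBP1 itself at -0.13. MED16 and R3HDM4, nearest toward the centromere, were at -0.73 and -1.20. ELAVL1, the RNA-stabilizing protein HuR, had 3580 and 4183, against 4140 and 4388, and was 0.20 above its neighbours, within the limit for following them.

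SAFB and SAFB2, nuclear scaffold attachment factors, are neighbours whose genes overlap head to head by 1012 bases and whose RefSeq promoter windows share 194 bases. SAFB, on the plus strand, had 4630 and 3557 in knockout 2 and 8, against 3811 and 4098. SAFB2, on the minus strand, had 2708 and 3128, against 2761 and 3181. In knockout 2 SAFB lay above both parental libraries (log2 ratio 0.23) and SAFB2 below both (-0.13), and in knockout 8 SAFB lay below both (-0.15) while SAFB2 lay between them (0.08). The parental gaps were 0.10 for SAFB and 0.20 for SAFB2, so the distance of SAFB2 from the parental mean was smaller than the parental gap in both knockout libraries, although knockout 2 lay just below parental library 1. The pair are similar in sequence, and how reads shared between them were counted is not given in the sources used here.

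The 9 genes of protein synthesis, folding and breakdown had a median of -0.53 in knockout 2, with 2 deeper, 6 that followed and 1 that escaped. EEF2, the elongation factor that moves the ribosome along the mRNA, was the most abundant of the 57 per kilobase of exon and had 38273 and 84364 normalized counts in knockout 2 and 8, against 97973 and 92920. At 40.1% of the parental mean in knockout 2, its log2 ratio of -1.32 lay 0.77 below the median of its neighbours, the largest such gap downward in the list. PRKCSH, a subunit of the glucosidase that trims new glycoproteins, had 16853 and 25169, against 24658 and 23971, and its ratio of -0.53 is the list's median. OAZ1, the antizyme that targets ornithine decarboxylase for degradation, had 6131 and 9865, against 8871 and 9320, again below both parental libraries in knockout 2 and above both in knockout 8. NCLN, the membrane protein nicalin, had 3649 and 5329, against 4603 and 4993, with ratios of -0.39 and 0.15. The peptidase THOP1, the heat shock co-chaperone DNAJB1, the phenylalanyl-tRNA synthetase subunit FARSA and the lysosomal mannosidase MAN2B1 were at -0.81, -0.68, -0.40 and -0.35.

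CALR, calreticulin, a chaperone of the endoplasmic reticulum that binds calcium and glycoproteins, escaped. It had 24941 and 24127 normalized counts in knockout 2 and 8, against 23366 and 24154. Knockout 2 lay just above both parental libraries (0.07, counting interval 0.04 to 0.09), and knockout 8 between them. FARSA, its close listed neighbour on the telomeric side, had 8718 and 10970, against 11359 and 11592, and both genes share a local shift of -0.41. FARSA and CALR thus lay on different sides of the parental libraries in knockout 2.

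**Figure D3:**
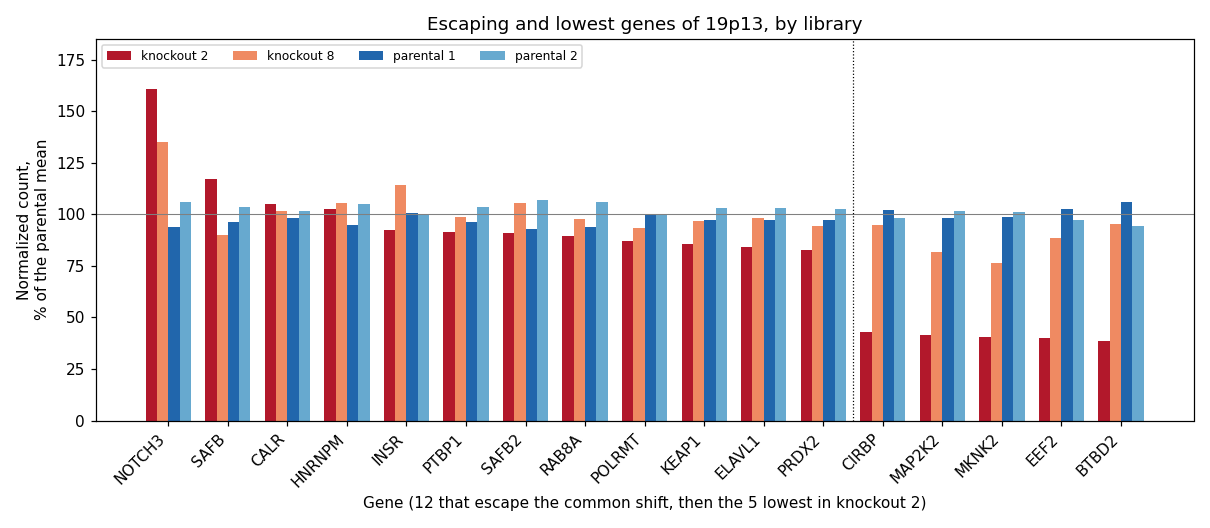
Normalized count as a percentage of the parental mean (y axis) in knockout 2, knockout 8, parental 1 and parental 2 for the 12 escaping genes, in falling order of their knockout 2 ratio, and, right of the dotted line, the 5 lowest genes. NOTCH3 reaches 161% in knockout 2, and BTBD2 lies at 38.7%.

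The 8 genes of transcription and chromatin held no escaping member and had a median of -0.63 in knockout 2. PIAS4, a SUMO ligase, DOT1L, the histone H3 lysine methyltransferase, and TCF3, an E protein of the basic helix-loop-helix family, lay deeper, at -0.96, -0.93 and -0.93. MIDN, the proteasome adaptor midnolin, had 897 and 1266 normalized counts in knockout 2 and 8, against 1405 and 1359, and followed. SMARCA4, the ATPase BRG1 of SWI/SNF remodelling complexes, had 9243 and 10747, against 11699 and 12125. CARM1, an arginine methyltransferase, had 3584 and 4333, against 4805 and 4814. Both genes had the same order of libraries, with knockout 2 lowest, knockout 8 next and the parental pair above. NFIC and AKAP8 were at -0.65 and -0.28.

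Of the 4 genes of mitochondria and redox control, LONP1, a protease of the mitochondrial matrix, had 4367 and 6443 in knockout 2 and 8, against 6959 and 7022. CLPP, the other matrix protease, had 1221 and 1937, against 2078 and 2181. Both lay below the parental pair in both knockout libraries, while POLRMT, the mitochondrial RNA polymerase, and PRDX2, a peroxiredoxin, escaped. POLRMT had 2887 and 3090, against 3308 and 3312, and PRDX2 had 5908 and 6729, against 6958 and 7325. All 4 genes were below both parental libraries in knockout 8 too, though by no more than 0.14.

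In trafficking, AP3D1, a subunit of the AP-3 adaptor that sorts cargo to lysosomes and melanosomes, had 2633 and 6133 in knockout 2 and 8, against 5642 and 5453. The knockout libraries lay on opposite sides of the parental pair, and their gap in AP3D1 was among the 3 widest, with those of BTBD2 and CIRBP. COPE, a subunit of the COPI coat, had 5808 and 7358, against 7298 and 7644, while the small GTPase RAB8A escaped, with 2209 and 2413, against 2322 and 2619. AP1M1, of the AP-1 adaptor, was at -0.33. Among 4 genes of membrane and cytoskeleton, BSG, basigin, had 11526 and 14011, against 14406 and 14730, and TPM4, a tropomyosin, had 10491 and 14162, against 13465 and 13734. PNPLA6, a phospholipase, was at -0.90. CNN2, a calponin that binds actin, had 1342 and 1625, against 2298 and 2214, and was the lowest of the 57 in knockout 8 (-0.47). CNN2 has 11 annotated pseudogenes whose names derive from it, so reads shared with copies make its value uncertain, and 13 of the 57 genes have at least 1 such pseudogene. In GENCODE release 29, 25 of the 57 overlap an exon of a gene on the opposite strand, and the strand setting of the counting is not given in the sources used here.

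What the escaping genes shared beyond their ratios was limited. They lay in all 5 sub-bands: 4 of 31 listed genes in 19p13.3, 4 of 11 in 19p13.2, 2 of 4 in 19p13.13, 1 of 4 in 19p13.12 and 1 of 7 in 19p13.11. Against the common median, none of the 22 genes from CNN2 to MAP2K2 escaped, so this division partly follows position. Median exon length was 5918 bases in the 12, 4524 in those that followed and 5753 in those that lay deeper. The parental level per kilobase of exon had medians of 630, 1080 and 558 in the same order. Across the 57 genes, Spearman's rho of the knockout 2 ratio was 0.18 with the parental level per kilobase and 0.05 with gene length, against 0.54 with the local shift of unlisted neighbours. The local shift and the ratio come from the same libraries, so the last value describes the map and tests nothing.

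Many of the 57 proteins work in complexes whose other subunits or direct partners are encoded on other chromosomes. A list of 70 genes for 28 of the 57, called partners here, also takes in some homologues, such as GNAQ for GNA11 and CANX for CALR. None of the 70 is on chromosome 19 and all were measured. Their median log2 ratio was 0.07 in knockout 2 and -0.01 in knockout 8. In knockout 2, 27 partners lay below both parental libraries and 39 above both, against 43.5% and 42.5% of all genes tested. Each partner had a higher knockout 2 ratio than its 19p13 gene, which the choice of the 57 for low values favours. MAP2K2 was at -1.27 while its homologue MAP2K1 was at 0.21, SF3A2 at -0.96 while SF3A1 and SF3A3 were at 0.14 and 0.22, and CLPP at -0.80 while its ATPase partner CLPX was at 0.02. COPE was at -0.36, and 6 other COPI subunits on the list lay between -0.19 and 0.41. The 3 highest partners were SLC16A3 (0.76), ODC1 (0.57) and TCF4 (0.42), the first of them a lactate transporter that pairs with basigin and the second the enzyme that antizyme degrades. In knockout 8 SLC16A3 and ODC1 lay below both parental libraries, at -0.36 and -0.15, and TCF4 above both, at 0.27. The 3 lowest were AP3S2 (-0.80), at 12.6 and 29.3 normalized counts in knockout 2 and 8 against 21.9 and 23.7 in the parental libraries, STRADB (-0.56) and CAB39 (-0.54). STRADB and CAB39 bind the kinase STK11, and the third listed STK11 partner, STRADA, was at -0.32. In knockout 8 STRADB and CAB39 lay above both parental libraries, at 0.10 and 0.49, and STRADA below both, at -0.15. STRADB and CAB39 are on chromosome 2, and STRADA is on chromosome 17. The other partners on chromosome 2 were NFE2L2, CUL3, FARSB and ODC1, at 0.61, 0.44, 0.35 and -0.15 in knockout 8.

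**Figure D4:**
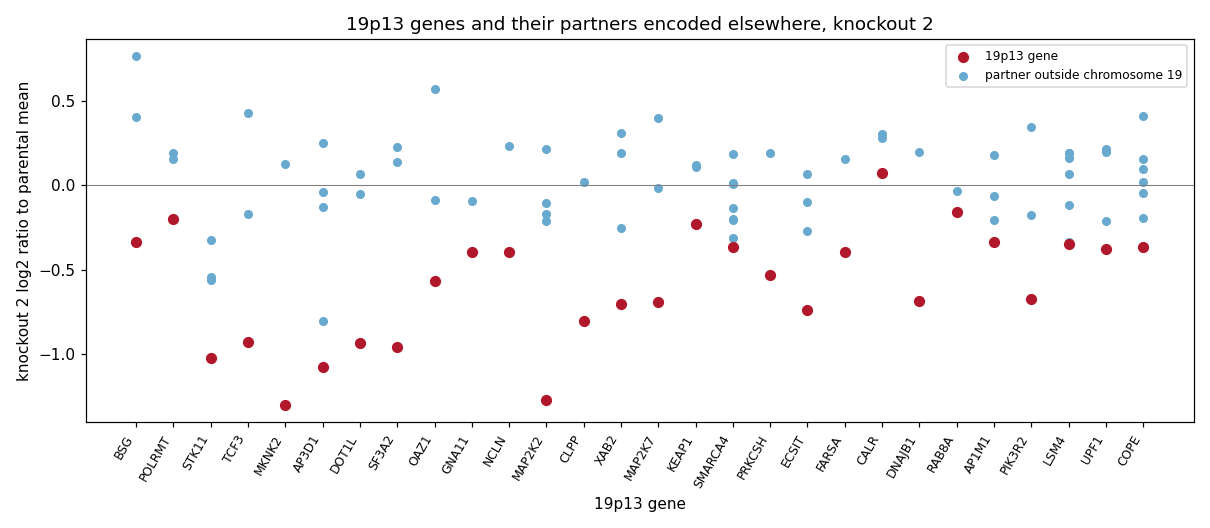
Log2 ratio to the parental mean in knockout 2 (y axis) for 28 genes of 19p13 (red) and their 70 partners on other chromosomes (blue), by 19p13 gene in order from the telomere. Most partners lie around 0, with a median of 0.07, and those of STK11 lie between -0.56 and -0.32.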

How the data were processed

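Per the submitters' processing notes, reads were handled with STAR, Picard, HTSeq, DESeq2 and deepTools on build hg38; the sources used here give no versions, annotation or strand setting. The deposited table holds a signal per gene, which the authors made by dividing counts by 1 factor per library: 100% of values were whole multiples, within 0.001, of what 1 read is worth, and the factors (0.950, 1.02, 0.912 and 1.14 for knockout 2 and 8 and parental 1 and 2) matched median-of-ratios size factors. The members and lists, partners and roles included, were chosen with earlier results of these data known. Ratios used log2(value + 1). Genes with at least 10 in 2 libraries were tested with limma 3.58.1 on both knockout against both parental libraries (R 4.3.3), with Benjamini-Hochberg adjustment over all genes; edgeR 4.0.16 and DESeq2 1.42.0 were run on the recovered reads. The fits were tested on simulated data. Nothing in the labels says that libraries came from separate cultures, so p-values reflect the spread among these libraries alone, which may be technical, and the smallest exact permutation p of 2 against 2 is 33.3%. The knockout columns are numbered 2 and 8 and were used as group members only. Named genes are those that escaped, the 5 lowest, the 4 closest to the median, the 2 highest per kilobase in each role, and the 3 that differed most between knockout libraries or were highest in knockout 8; other members are given by their ratio. STK11, CNN2, CLPP and FARSA fall outside this rule and were chosen after their values were seen. So were the partners MAP2K1, SF3A1, SF3A3, CLPX, STRADA, NFE2L2, CUL3 and FARSB. The unlisted genes named between BSG and CNN2 were also chosen then. Positions are GENCODE release 29 on GRCh38. Alternatives were another pseudocount, TMM or total-read scaling, other band widths, no low-value filter, and leaving out each library. Some results are not reported here.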

Additional observations from a re-analysis of the deposited data

How the results depend on the processing

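No paired analysis was possible because the knockout columns carry the numbers 2 and 8 rather than the labelled replicate numbers. With a band of 0.15 in place of 0.25, 12 genes followed the common shift and 22 escaped it; with 0.35, 8 escaped. Leaving out parental library 1 gave 9 escaping genes, without ELAVL1, KEAP1 and PRDX2, and leaving out parental library 2 gave 14, with AKAP8 and LSM4 added. The median of the unlisted 19p13 genes ran between -0.53 and -0.50 when 1 parental library was left out, and that of the partners between 0.0453 and 0.0726. Over all genes, DESeq2 called 398 where limma called 0, and leaving out 1 library gave 0 to 5149 calls with limma (5149 without knockout 8, 3117 without knockout 2). Among the 57, DESeq2 called 1, and leaving out 1 library gave 0 to 51. The cause was not tested. The direction of the 57 genes' median in knockout 2 was the same under every alternative run.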

Other observations

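Some unlisted genes of 19p13, chosen after their values were seen, were higher in knockout 2 than the parental mean. Of 276 with a parental mean of at least 100, 7 had a log2 ratio over 0.5. In knockout 8, 5 of the 7 were above both parental libraries, against 40.2% of all genes tested. The share of all genes tested with a knockout 2 ratio over 0.5 was not counted, so the 7 are no result about 19p13. The 2 genes given next are examples. COL5A3, a fibrillar collagen chain, had 842 and 758 normalized counts in knockout 2 and 8, against 102 and 131 in parental libraries 1 and 2. C3, the central complement component, had 28895 and 5439, against 3955 and 4457. Both knockout libraries exceeded both parental ones in COL5A3 and C3, by different amounts.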
